A study of Mus musculus with 16 samples.

Results

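ATP-binding cassette (ABC) transporter genes were followed in 16 bulk RNA-seq libraries of mouse multipotent progenitors (MPPs). Members were all genes whose symbol begins with Abca, Abcb, Abcc, Abcd, Abce, Abcf or Abcg and a number and which had at least 10 counts summed over the libraries. Of 50 gene identifiers with such a symbol, 38 were members, out of 22281 genes with at least 10 counts. The remaining 12, which include the bile salt exporter Abcb11 and the sterol half-transporters Abcg5 and Abcg8, were under that total. By subfamily, 11 members were Abca, 8 Abcb, 7 Abcc, 4 Abcd, 1 Abce, 3 Abcf and 4 Abcg. Tap1, Tap2 and Cftr are ABC genes under other symbols and were counted outside the 38.

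The cells were MPP3, the myeloid-biased progenitors of the Lin- Sca1+ cKit+ CD150- CD48+ gate, and MPP4, its lymphoid-biased Flt3+ counterpart, sorted from the bone marrow of C57BL/6 mice. Each population was taken from 4 mice labelled WT and 4 labelled KO. Per the labels, KO animals carry Ebf1fl/fl with 1 Tie2Cre allele (Tie2Cre +/cre), so that Ebf1, a B-lineage transcription factor, is deleted where Tie2 drives Cre, in endothelium and haematopoietic stem cells. WT animals are labelled Ebf1fl/fl Tie2Cre+/+, that is floxed without Cre, whereas the series text gives Cre-carrying controls with an intact Ebf1, and the study's methods allow littermates of either kind; which of these holds cannot be told from the counts, so a Cre effect and a deletion effect cannot be separated on the labels alone. WT mice were 11 to 12 weeks old and KO mice 9 to 11 weeks old, with 2 females of 4 in each genotype. Nothing was treated. MPP3 and MPP4 libraries of the same number and genotype have the same sex and age and were taken as 1 mouse, giving 8 mice.

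Library totals ran from 24823708 to 48703193 counts. Counts of Ebf1, the targeted gene, ran from 5 to 91 in the MPP3 WT libraries and from 6 to 84 in the MPP3 KO libraries. In MPP4 they ran from 98 to 263 in WT and from 488 to 928 in KO, so the gene count ran against the label there; a count over the whole gene cannot separate intact from recombined transcripts, and the KO groups are the libraries labelled KO throughout. Flt3, which defines MPP4, was at 205 to 313 CPM (counts scaled to a common library size) in the MPP3 libraries and at 938 to 1360 CPM in the MPP4 libraries. In bulk libraries such as these, fewer cells of a type and less RNA per cell cannot be told apart.

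ABC proteins bind and hydrolyse ATP, and most use it to move lipids, peptides, metals, conjugates or drugs across a membrane. Many members of subfamilies A and G move sterols or phospholipids. B holds the multidrug, bile and mitochondrial transporters, C the conjugate exporters, and D half-transporters, most of which bring fatty acyl-CoA into peroxisomes. The E and F proteins have the ATP-binding domains but no membrane span and act in ribosome recycling and translation, and Abcg2 is known as the dye-efflux pump of the side population of blood stem cells.

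Per unit of length, the translation proteins were the most abundant members. Levels are given as RPKM, that is CPM divided by the exon length in kilobases. Abcf2 averaged 75.6 RPKM over the 16 libraries, Abcf1, which binds the initiation factor eIF2, 51.7 RPKM, and the recycling factor Abce1 36.8 RPKM. These 3 genes held 50.3% of the RPKM summed over the 38 members. Next came the sterol exporter Abcg1 at 29.3 RPKM, Abcf3 at 24.8 RPKM and the mitochondrial Abcb8 at 20.6 RPKM. The first 4 ranks stayed when the longest annotated transcript replaced the union of exons, although Abce1 then stood at 58.2 RPKM.

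**Figure D1:**
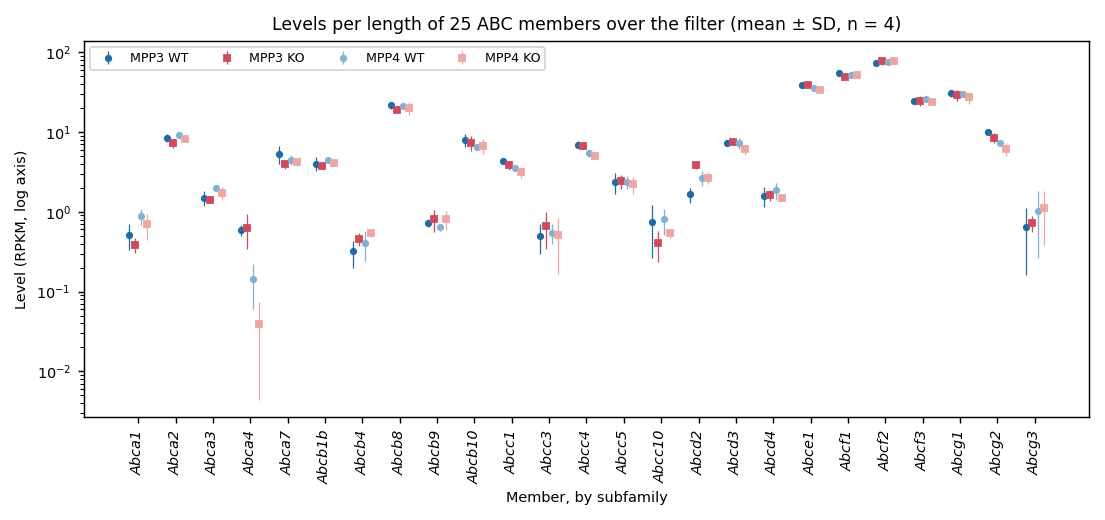
Mean level per length (RPKM, logarithmic axis) of 25 of the 27 members over the expression filter in the 4 groups, with bars for the SD of 4 libraries. Abcf2, Abcf1 and Abce1 are highest in every group, and Abca4 is the member whose MPP4 points lie farthest under its MPP3 points.

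Of the 38 members, 32 had counts in all 16 libraries. The tests used the 27 members with a mean above 100 counts in at least 1 group, 5 of 11 in Abca, 6 of 8 in Abcb, 5 of 7 in Abcc, 3 of 4 in Abcg and all members of Abcd, Abce and Abcf. The other 11 were low, the highest of them averaging 0.184 RPKM. They were Abca5, Abca6, Abca8b, Abca9, Abca13, Abca17, Abcb1a, Abcb6, Abcc2, Abcc9 and Abcg4. Abca9, with 698 counts in all, ranged from 0.247 to 2.47 CPM, the multidrug pump Abcb1a from 0.333 to 2.16 CPM and the porphyrin transporter Abcb6 from 0.478 to 1.44 CPM. Abcb1a shares sequence with its neighbour Abcb1b, and Abcb6 overlaps another annotated gene on its own strand, so reads may be split between them.

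Summed over a subfamily, levels per length overlapped between the 4 groups in Abcf, Abcb and Abcg and not between all groups in Abcd and Abcc. Abcf summed to 152 ± 7.47 RPKM in MPP3 WT, 150 ± 14.1 in MPP3 KO, 153 ± 7.44 in MPP4 WT and 153 ± 9.37 in MPP4 KO (SD, n = 4). Abcb summed to 43.8 ± 2.95, 39.9 ± 1.86, 42.7 ± 2.19 and 40.0 ± 4.46 RPKM in the same order, and Abcg to 41.4 ± 3.21, 38.3 ± 3.74, 38.5 ± 3.32 and 34.4 ± 4.65 RPKM. Abcd summed to 26.6 ± 4.04 RPKM in MPP3 WT, 27.3 ± 1.05 in MPP3 KO, 32.0 ± 2.48 in MPP4 WT and 29.0 ± 1.91 in MPP4 KO, with the MPP3 KO libraries (25.7 to 27.9) below the MPP4 WT libraries (29.7 to 35.4). Abca, led by the lysosomal Abca2, stood between 14.0 and 17.1 RPKM by group mean, and Abcc, led by Abcc4, between 11.4 and 15.0 RPKM. The Abcc sum ran from 13.9 to 14.4 RPKM in MPP3 KO, above MPP4 WT at 11.4 to 13.4 and MPP4 KO at 10.6 to 11.7 RPKM. In MPP3 WT it ran from 12.9 to 17.5 RPKM, also above MPP4 KO and overlapping MPP4 WT.

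The first comparison asked which members differ between the libraries labelled KO and WT. In MPP3, 1 of 27 members, Abcd2, passed a false discovery rate (FDR, the Benjamini-Hochberg adjusted p over all genes) of 0.1, against 0.0676% of the 11831 genes tested. Abcd2 (ENSMUSG00000055782, chr15:91145871-91191799, minus strand, mm10) encodes a half-transporter that carries very long chain fatty acyl-CoA into peroxisomes. It was singled out because its rise was known from earlier results on these libraries, so its test in MPP3 is no independent evidence.

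Abcd2 stood at 12.5, 7.41, 9.03 and 10.2 CPM in MPP3 WT replicates 1 to 4. It stood at 20.7, 25.1, 24.3 and 20.7 CPM in MPP3 KO replicates 1 to 4. The lowest KO library was above the highest WT library, and the raw counts were 755 to 915 in KO and 188 to 415 in WT. The fitted difference was 2.32-fold, a log2 fold change of 1.21 ± 0.18 (SE; edgeR quasi-likelihood FDR = 0.0172), the 4th smallest p of all genes. The call was lost with age as a term (log2 fold change 1.213, FDR = 0.11), with only the 8 MPP3 libraries in the fit (1.215, FDR = 0.179) and without MPP3 WT replicate 2 (1.106, FDR = 0.109). KO mice were the younger group in these labels.

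In MPP4 the same gene stood at 13.9, 12.3, 19.9 and 17.8 CPM in WT replicates 1 to 4 and at 12.7, 19.0, 16.4 and 15.6 CPM in KO replicates 1 to 4. The 2 groups overlapped throughout, and the log2 fold change was -0.003 ± 0.18 (SE, FDR = 0.997). By group mean, MPP3 KO was highest at 22.7 ± 2.29 CPM, MPP4 WT and MPP4 KO lay next to each other at 15.9 ± 3.49 and 15.9 ± 2.57 CPM, and MPP3 WT was lowest at 9.79 ± 2.14 CPM (SD, n = 4). Per length this was 3.82 RPKM in MPP3 KO and 1.65 RPKM in MPP3 WT, and over all 16 libraries Abcd2 ranked 17th of the 38 members.

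**Figure D2:**
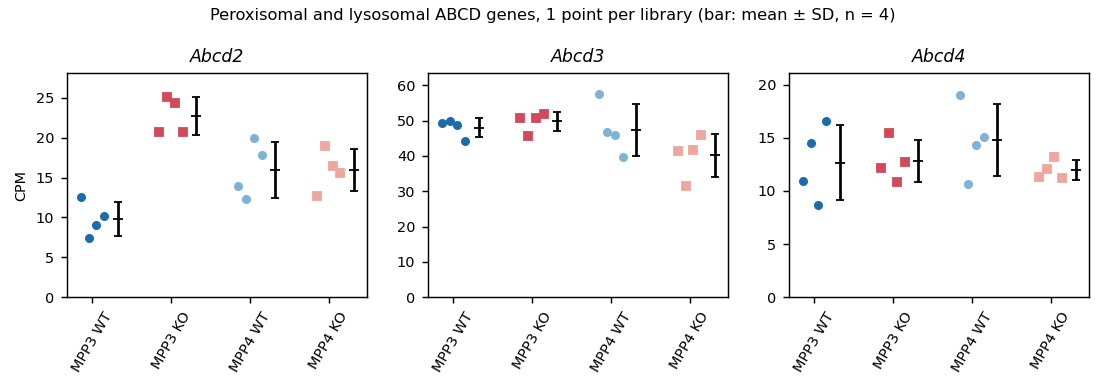
Abcd2, Abcd3 and Abcd4 in each library (CPM, axes from 0), 1 point per library in replicate order, with the mean and SD of each group (n = 4) beside the points. The MPP3 KO points of Abcd2, between 20.7 and 25.1 CPM, lie above every other point of the gene, and the other genes shown have no such separation.

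Abcd3, the importer of branched-chain and bile acid precursors, had 49.2, 49.9, 48.8 and 44.1 CPM in MPP3 WT and 50.7, 45.7, 50.7 and 51.9 CPM in MPP3 KO (0.05 ± 0.12, FDR = 0.932). In MPP4 it had 57.4, 46.7, 46.0 and 39.7 CPM in WT and 41.3, 31.6, 41.7 and 45.9 CPM in KO (-0.24 ± 0.12, FDR = 0.411). The MPP4 estimate was -0.058 with age as a term, -0.137 without MPP4 WT replicate 1 and -0.143 without MPP4 KO replicate 2. It had the third smallest p of the members in MPP4, and its groups overlapped.

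Abcd4, which sits in lysosomes and takes part in cobalamin export, had 10.9, 14.5, 8.67 and 16.6 CPM in MPP3 WT and 12.2, 15.5, 10.8 and 12.7 CPM in MPP3 KO (0.02 ± 0.20, FDR = 0.992). In MPP4 it had 19.0, 10.7, 14.3 and 15.1 CPM in WT and 11.3, 12.1, 13.2 and 11.2 CPM in KO (-0.31 ± 0.20, FDR = 0.542). Whether the Abcd2 difference in MPP3 was larger than those of Abcd3 and Abcd4 was not tested.

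Among all 27 members tested in MPP3, 10 estimates were above 0 and 17 below, with a median log2 fold change of -0.075 beside -0.005 over all genes. The median was -0.007 without MPP3 WT replicate 2, -0.036 without MPP3 WT replicate 1 and -0.13 without MPP3 WT replicate 3, and it was -0.041 with genes of at least 10 counts and -0.038 with filterByExpr. After Abcd2 the highest estimate was 0.52 ± 0.31 for Abcb4, the phosphatidylcholine floppase (FDR = 0.608). The lowest was -0.87 ± 0.43 for Abcc10, a conjugate exporter whose exons overlap those of Dlk2 (FDR = 0.511). Unadjusted p was under 0.05 for 4 members, or 14.8%, beside 10.5% of all genes.

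Those 4 members were Abcd2, Abcf1, Abca7 and Abca2. Abcf1 stood at 246, 254, 220 and 243 CPM in MPP3 WT and at 206, 203, 208 and 235 CPM in KO, where replicate 4 overlapped the WT range (log2 fold change -0.18 ± 0.06, FDR = 0.322). Abca7, a phospholipid exporter of the phagocytic pathway, stood at 49.0, 37.0, 29.8 and 29.3 CPM in WT and 30.7, 22.6, 27.6 and 24.9 CPM in KO (-0.45 ± 0.16, FDR = 0.322). Its 2 highest libraries in MPP3 were WT replicates 1 and 2, both from females, while with sex as a term the estimate was -0.449 (FDR = 0.26). Without WT replicate 1 the estimate was -0.275 (FDR = 0.704). Abca2 differed by -0.24 ± 0.10 (FDR = 0.436).

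In MPP4, 0 of 27 members were called by edgeR, by DESeq2 or by limma voom, where these tools called 0.0169%, 2.58% and 0.287% of all genes. DESeq2 gave no adjusted p for Abca4 (log2 fold change -1.876), so for that member its result is neither a call nor a failed one. Unadjusted p was under 0.05 for 2 members in edgeR, or 7.41%, beside 12.8% of all genes. The smaller p was that of Abca4. Estimates were above 0 for 5 members and below 0 for 22, with a median of -0.123 beside -0.013 over all genes.

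Abca4, best known as the retinal lipid flippase, had the largest estimate in MPP4. It stood at 3.12, 1.42, 0.805 and 1.48 CPM in WT and at 0.49, 0.0536, 1.04 and 0.302 CPM in KO, 39 to 132 counts against 2 to 28 (log2 fold change -1.90 ± 0.58, FDR = 0.203). KO replicate 3 overlapped the WT range, and with 1 library left out the estimate ran from -2.595 without KO replicate 3 (FDR = 0.115) to -1.428 without WT replicate 1 (FDR = 0.327).

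**Figure D3:**
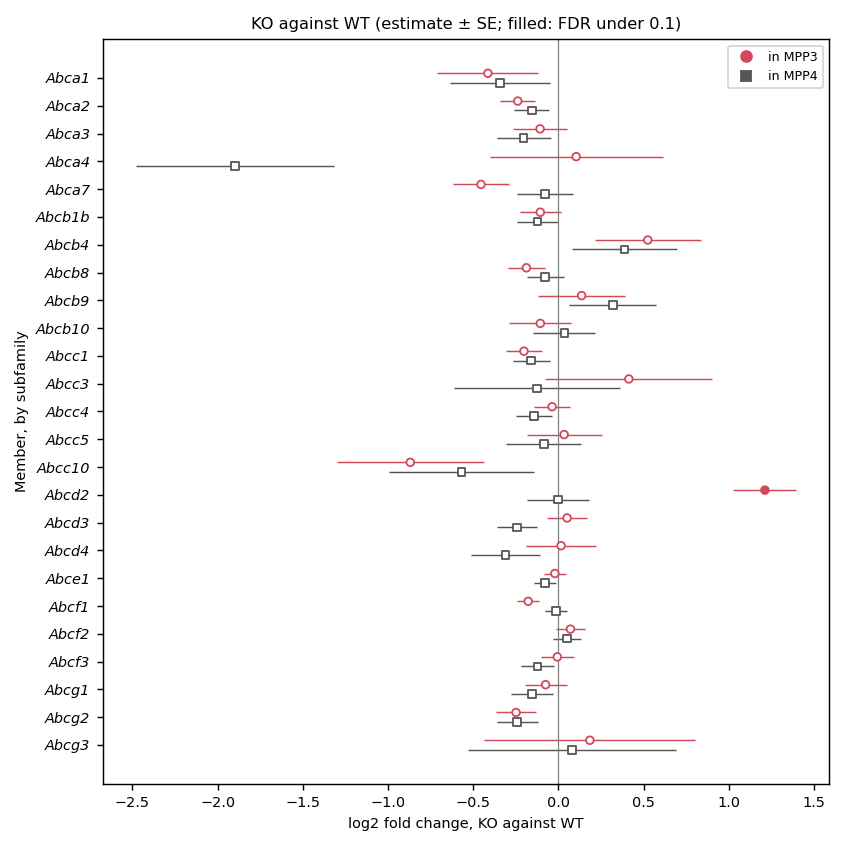
Log2 fold change of KO against WT with its SE for 25 of the 27 tested members, in MPP3 (circles) and MPP4 (squares), where filled symbols passed an FDR of 0.1. The only filled symbol is Abcd2 in MPP3, at 1.21, while Abca4 in MPP4, at -1.90, has the widest distance from 0 among the open ones.

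Whether the KO effect itself differs between MPP3 and MPP4 was tested as an interaction. In edgeR 0 of 27 members passed, as 0.0% of all genes did, and 2 members, or 7.41%, had an unadjusted p under 0.05, beside 2.28% of all genes. These 2 were Abcd2, singled out for its MPP3 rise, and Abca4, over the filter through its MPP3 groups alone. The share is therefore a description and no evidence about the family. With the mouse as a block, where 0.0169% of all genes were called, the number stayed at 0 of 27. For Abcd2 the difference of the log2 fold changes was 1.21 ± 0.26 (SE, edgeR FDR = 0.665; 0.185 with the mouse as a block). DESeq2 called 0.0676% of all genes and Abcd2 among them (difference 1.21 ± 0.27, FDR = 0.0203), and limma voom did not call it (FDR = 0.195). The difference is nearly all the MPP3 rise for which the gene was singled out, so it is no independent evidence either. The other member with a small p was Abca4, with a difference of 2.00 ± 0.77 (FDR = 1.0).

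Marker lists of other cell types were also read, and whether their counts came from such cells or from the progenitors was not tested. A list of 6 monocyte and macrophage markers summed to 30.2 to 46.5 CPM in MPP3 WT and 45.8 to 88.0 CPM in MPP3 KO, and to 47.8 to 52.1 CPM in MPP4 WT and 85.6 to 133 CPM in MPP4 KO. Its 5 tested genes were all higher in KO in both populations and 0 of them were called in edgeR. A list of 7 plasma cell markers summed to 269 to 759 CPM in MPP3 WT and to 179 to 404 CPM in MPP3 KO. Of its 5 tested genes 2 had estimates above 0 in MPP3 KO and 0 were called. Xbp1, its secretory regulator, ranged from 161 to 244 CPM in MPP3 WT and from 166 to 341 CPM in MPP3 KO. The immunoglobulin gene Igkc was at 381, 361, 82.9 and 67.6 CPM in MPP3 WT replicates 1 to 4, at 61.2 CPM in MPP3 KO replicate 3 and at 0 in the other MPP3 KO libraries. B cell marker sums, nearly all Cd79b, overlapped between WT and KO in both populations. Of 2 tested B cell genes, 1 had an estimate above 0 in each population and 0 were called. Cd79a was at 1.75 to 3.47 CPM in MPP3 WT and 0.0262 to 0.663 CPM in MPP3 KO. In MPP4 it was at 1.59 to 7.3 CPM in WT and 0.0 to 0.963 CPM in KO. Of mast cell and basophil markers, 6 of 6 tested had estimates above 0 in MPP3 KO (200 to 411 CPM summed, against 208 to 302 in MPP3 WT), of mature neutrophil markers 4 of 4 (9.24 to 75.1 against 11.6 to 46.6 CPM) and of megakaryocyte markers 0 of 3 (93.6 to 146 against 123 to 128 CPM). The group sums of these 3 lists overlapped and 0 of their genes were called in edgeR. The 7 genes of the progenitor gate summed to 3230 to 3400 CPM in MPP3 WT and 2960 to 3260 CPM in MPP3 KO, which overlap, and to 3990 to 4430 CPM in MPP4 WT and 3520 to 3850 CPM in MPP4 KO, which do not. Of its 6 tested genes 1, Kit, was called in MPP4, where 0.0169% of all genes were called. Kit was at 498 to 578 CPM in WT and 381 to 431 CPM in KO. The list did not move as one, since 2 of the 6 had estimates above 0 in MPP4 KO. Ly6a was at 47.3 to 52.1 CPM in MPP4 WT and at 53.5 to 77.9 CPM in MPP4 KO. Every marker of these lists had counts in at least 1 library, and their part in the Abcd2 and Abca7 values was not tested.

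The second comparison asked how the 2 progenitor populations differ, in libraries taken as coming from the same mice. In WT, 6 of 27 members were called between MPP3 and MPP4, or 22.2%, beside 15.1% of all genes. Of these, 4 were higher in MPP3, where 6.8% of all genes were called in that direction, and 2 were lower, beside 8.33%. In KO, 7 members were called, or 25.9%, beside 17.9% of all genes, with 5 higher in MPP3, beside 8.71%, and 2 lower, beside 9.18%. Both the 6 and the 7 include Abcd2, singled out for its MPP3 rise, and Abca4, over the filter through its MPP3 groups alone. The shares are therefore a description. With 1 library left out the WT number was 4 to 6, with 4 reached without MPP3 WT replicate 1, 2 or 3 or MPP4 WT replicate 2, 3 or 4. The KO number was 4 to 8, with 4 reached without MPP3 KO replicate 1 or MPP4 KO replicate 3. The median member differed by -0.031 in WT and 0.036 in KO on the log2 scale, beside medians of all genes of 0.0 and -0.008. With 1 library left out the WT median ran from -0.062 to 0.061, above 0 without MPP3 WT replicate 3 (0.045) or 4 (0.047) or MPP4 WT replicate 1 (0.061), and the KO median from 0.007 (without MPP3 KO replicate 4) to 0.096 (without MPP3 KO replicate 1). With genes of at least 10 counts or with filterByExpr the KO median was 0.127 and 0.115 and the WT median -0.016 and 0.008.

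Abca4, Abcg2 and Abcc4 were higher in MPP3 than in MPP4 in both genotypes and in 4 of 4 mice of each. Abca4 (chr3:122044443-122180123, plus strand) stood at 7.92, 5.79, 7.92 and 6.63 CPM in MPP3 WT and 11.8, 9.1, 3.93 and 5.61 CPM in MPP3 KO, against the MPP4 values above. MPP3 and MPP4 did not overlap in either genotype. The rise was 4.14-fold in WT (log2 fold change 2.05 ± 0.535, FDR = 0.0181) and 16.6-fold in KO (4.05 ± 0.60, FDR = 0.000174), the latter resting on MPP4 KO libraries with 2 to 28 counts. The KO log2 fold change was 4.748 without MPP4 KO replicate 3 and 3.661 without MPP4 KO replicate 2. Abca4 passed the filter through its MPP3 groups alone, where it is high, so its test is given as a description, although it is among the called members counted above.

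Abcg2 (chr6:58584523-58695676, plus strand), the side population pump that also exports porphyrins and urate, stood at 75.3, 79.9, 91.5 and 83.0 CPM in MPP3 WT and 57.9, 61.1, 61.2 and 56.1 CPM in MPP4 WT. In KO it stood at 81.6, 71.5, 60.9 and 63.6 CPM in MPP3 and 61.7, 42.1, 42.9 and 53.3 CPM in MPP4. The WT groups were apart and the KO groups touched only between MPP3 replicate 3 and MPP4 replicate 1. Its difference was 1.4-fold in WT (0.48 ± 0.12, FDR = 0.0133) and 1.39-fold in KO (0.47 ± 0.12, FDR = 0.0131).

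Abcc4 (chr14:118482692-118706219, minus strand), an exporter of cyclic nucleotides and eicosanoids, stood at 49.4, 46.8, 41.1 and 39.9 CPM in MPP3 WT and 34.8, 39.8, 35.0 and 30.0 CPM in MPP4 WT. In KO it stood at 42.3, 48.4, 40.5 and 41.5 CPM in MPP3 and 29.2, 34.9, 32.2 and 30.0 CPM in MPP4. MPP3 lay above MPP4 without overlap in both genotypes, by 1.27-fold in WT (0.34 ± 0.11, FDR = 0.0471) and 1.37-fold in KO (0.45 ± 0.11, FDR = 0.00824). In WT it no longer passed without MPP3 WT replicate 1 or 2 or MPP4 WT replicate 4 (FDR up to 0.152).

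Promoter windows of these 3 members are shown because they moved together between the populations, and that of Abcd3 because it carries the core letters bound by EBF1. Each runs from 250 bases before to 50 bases after an annotated start on GRCm38.p6, the patch release of mm10 (RefSeq), 5′ to 3′ on the gene's strand. Capitals mark matches to any of 3 motifs searched on both strands, the EBF core CCCNNGGG, the C/EBP core TTGCNNAA and the nuclear receptor half-site AGGTCA. The windows are Abca4 at chr3:122044210-122044509, Abcc4 at chr14:118706170-118706469, Abcg2 at chr6:58584283-58584582 and Abcd3 at chr3:121815253-121815552.
Abca4: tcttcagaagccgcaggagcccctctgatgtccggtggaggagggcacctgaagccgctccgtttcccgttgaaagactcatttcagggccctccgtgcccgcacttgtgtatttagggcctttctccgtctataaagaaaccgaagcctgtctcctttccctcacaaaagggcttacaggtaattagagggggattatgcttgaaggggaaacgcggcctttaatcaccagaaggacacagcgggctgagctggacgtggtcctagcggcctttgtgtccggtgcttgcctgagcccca
Abcc4: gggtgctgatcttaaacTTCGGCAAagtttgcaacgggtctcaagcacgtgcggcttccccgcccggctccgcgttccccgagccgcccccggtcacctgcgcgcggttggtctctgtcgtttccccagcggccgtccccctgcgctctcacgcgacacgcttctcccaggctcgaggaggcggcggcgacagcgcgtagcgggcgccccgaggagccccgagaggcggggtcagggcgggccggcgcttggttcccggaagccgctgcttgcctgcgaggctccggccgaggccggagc
Abcg2: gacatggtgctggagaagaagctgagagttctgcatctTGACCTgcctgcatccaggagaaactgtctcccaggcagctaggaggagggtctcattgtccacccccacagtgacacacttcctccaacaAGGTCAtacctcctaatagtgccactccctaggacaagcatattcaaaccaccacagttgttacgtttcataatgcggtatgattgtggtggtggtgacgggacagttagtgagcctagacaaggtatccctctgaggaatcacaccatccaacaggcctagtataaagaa
Abcd3: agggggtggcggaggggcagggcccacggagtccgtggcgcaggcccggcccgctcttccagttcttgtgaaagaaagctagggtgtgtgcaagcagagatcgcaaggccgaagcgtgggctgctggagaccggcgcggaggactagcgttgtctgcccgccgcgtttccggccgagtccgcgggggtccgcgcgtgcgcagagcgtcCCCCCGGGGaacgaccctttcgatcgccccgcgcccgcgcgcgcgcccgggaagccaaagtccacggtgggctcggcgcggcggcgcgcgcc

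RefSeq gave 3 windows for Abcg2, 2 for Abcc4 and 2 for Abcd3, and the one with most matches is shown, for which reason the matches below are the highest of each gene. The other Abcg2 windows held 0 and 1 half-site, the other Abcc4 window held no match and the other Abcd3 window held 1 C/EBP core and no EBF core. The Abca4 window held no match, that of Abcc4 held 1 C/EBP core, that of Abcg2 held 2 half-sites and that of Abcd3 held 2 overlapping EBF cores. Promoters of 28 members were matched by symbol, 34 windows in all. The EBF core stood in 3 of these 34 windows, of Abcc10, Abcd3 and Abcg3, and in 13.7% of all 32851 windows. The C/EBP core stood in 5 of 34 (Abca8b, Abcb1b, Abcc4, Abcc5 and Abcd3) and in 10.8% of all, and the half-site in 6 of 34 (Abcb6, Abcc10, Abcc2 and Abcg2) and in 16.3% of all. These are matches of letters, not binding sites. Abcd2 and Abcd4 were not matched.

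Abcc1, Abce1 and Abca1 were each called in 1 genotype. Abcc1, which exports glutathione conjugates and leukotriene C4, stood at 69.1, 70.7, 65.1 and 59.9 CPM in MPP3 WT and 51.8, 53.2, 50.6 and 56.9 CPM in MPP4 WT, without overlap (0.32 ± 0.11, FDR = 0.0714). In KO its groups overlapped and it did not pass (0.27 ± 0.11, FDR = 0.112). In WT it no longer passed without any 1 of MPP3 WT replicates 1 to 3 or MPP4 WT replicates 1 to 3 (FDR up to 0.17), nor with genes of at least 10 counts (FDR = 0.129).

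Abce1 passed in KO, at 233, 234, 216 and 239 CPM in MPP3 and 203, 197, 192 and 221 CPM in MPP4 (0.18 ± 0.07, FDR = 0.0787), and had 0.12 ± 0.07 in WT (FDR = 0.301; 0.0922 with the mouse as a block). It was higher in MPP3 in 4 of 4 mice of each genotype, and in KO it no longer passed without MPP3 KO replicate 1, 2 or 4 or MPP4 KO replicate 1, 2 or 3 (FDR up to 0.186), nor with genes of at least 10 counts (FDR = 0.1). The cholesterol exporter Abca1 was lower in MPP3 in KO, at 3.69, 2.92, 4.62 and 4.75 CPM against 6.34, 6.43, 11.0 and 4.99 CPM in MPP4 (-0.84 ± 0.30, FDR = 0.073). The KO groups of Abca1 did not overlap, and its WT estimate was -0.77 ± 0.29 (FDR = 0.112; 0.0694 with the mouse as a block). Abca1 in KO no longer passed without MPP3 KO replicate 1 or 2 or MPP4 KO replicate 2 or 3 (FDR up to 0.254), nor with genes of at least 10 counts (FDR = 0.115).

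Within Abcd, Abcd3 was 0.31 ± 0.12 higher in MPP3 in KO (FDR = 0.104; 0.0194 with the mouse as a block) and differed by 0.02 ± 0.12 in WT (FDR = 0.963).

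Abcd2 was lower in MPP3 than in MPP4 in WT and higher in KO. Within the WT mice the log2 ratio of MPP3 to MPP4 was -0.152, -0.726, -1.14 and -0.797, lower in 4 of 4. Within the KO mice it was 0.705, 0.403, 0.565 and 0.411, higher in 4 of 4. The fit gave -0.70 ± 0.18 in WT (FDR = 0.0179) and 0.51 ± 0.18 in KO (FDR = 0.0766), and both use the MPP3 libraries in which the rise was known. In KO it no longer passed without MPP3 KO replicate 2 or 3 or MPP4 KO replicate 1, 3 or 4 (FDR up to 0.202), nor when genes with at least 10 counts (FDR = 0.126) or those kept by filterByExpr (0.102) were tested. No other tested member was on opposite sides in 4 of 4 mice of each genotype.

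**Figure D4:**
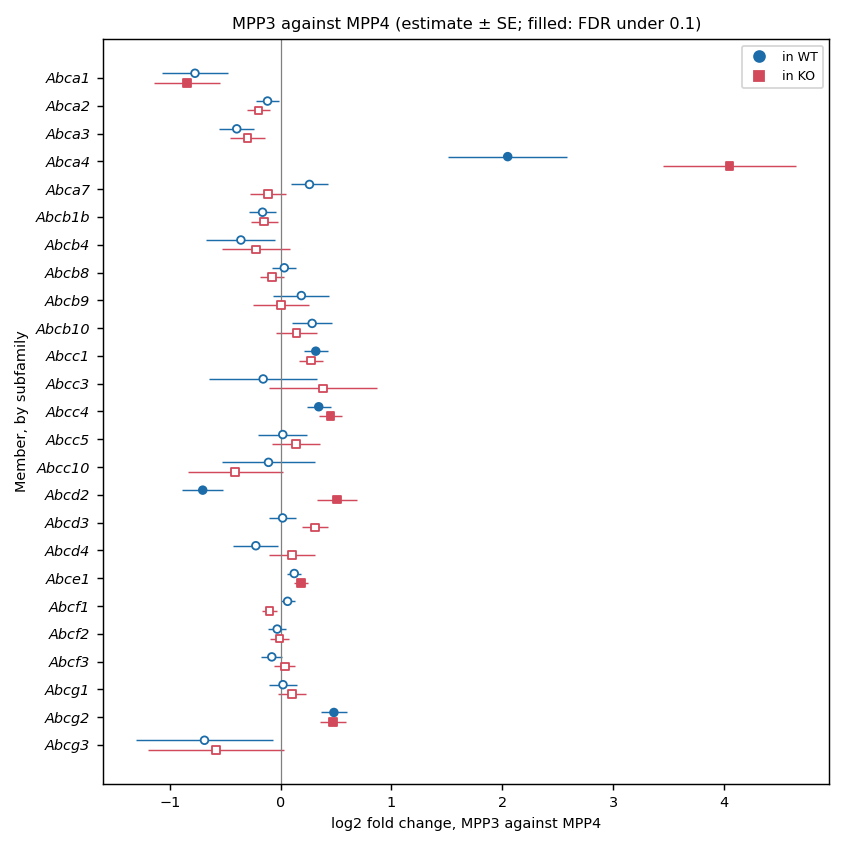
Log2 fold change of MPP3 against MPP4 with its SE for 25 of the 27 tested members, in WT (circles) and KO (squares), where filled symbols passed an FDR of 0.1. Abca4, Abcg2 and Abcc4 are filled and to the right of 0 in both genotypes, and Abcd2 is filled on opposite sides.

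With the mouse as a block in the fit, 10 members were called in WT, beside 24.8% of all genes, and 8 in KO, beside 28.3%. In WT the block added Abca1, Abce1, the lamellar body lipid transporter Abca3 (-0.42 ± 0.16, FDR = 0.0791) and the mitochondrial Abcb10, needed for haem synthesis (0.27 ± 0.09, FDR = 0.0626), to the 6 above. Both Abca3 and Abcb10 overlap another annotated gene. In KO it added Abcd3. Both numbers again include Abcd2 and Abca4. Abcb10 was higher in MPP3 in 4 of 4 mice of each genotype, and Abca3 lower in 4 of 4.

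**Figure D5:**
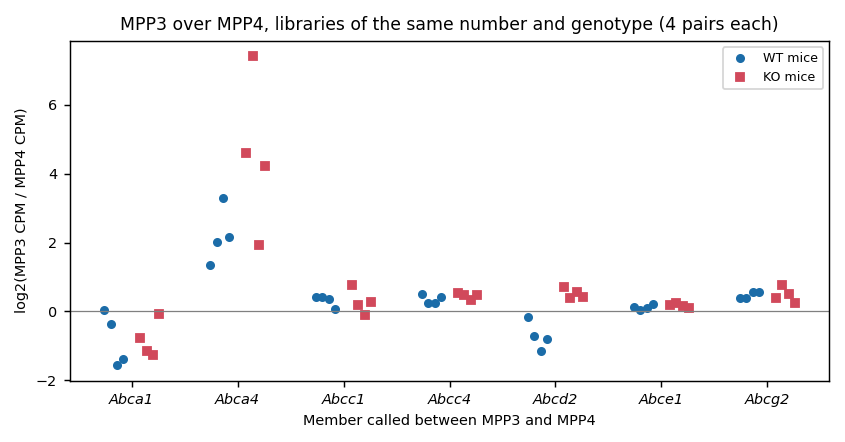
Log2 ratio of MPP3 CPM to MPP4 CPM between libraries of the same number, for 7 of the 8 members called between the populations, 4 pairs from WT mice (circles) and 4 from KO mice (squares). Abcd2 ratios lie between -1.14 and -0.152 in WT and between 0.403 and 0.705 in KO, while those of Abca4, Abcc4, Abce1 and Abcg2 are above 0 in all 8 mice.

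Abca8b, a lipid transporter under the filter, was nearly confined to MPP3 in these counts. MPP3 WT replicates 1 to 4 held 14, 6, 12 and 14 counts of it, and MPP3 KO replicates 1 to 4 held 4, 10, 23 and 35 counts. In MPP4 it had 2 counts in WT replicate 2 and 0 in the other 7 libraries, each of which allows up to 3 counts. It reached the minimum of 10 counts through MPP3 alone, and these counts are given as a description. Abca8b overlaps another annotated gene, Gm11697, and a count without known strand cannot separate the 2.

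Called in none of the comparisons in edgeR without the block were 19 of the 27 tested members. The cholesterol exporter Abcg1 ranged from 168 to 254 CPM over the 16 libraries, Abcf2 from 172 to 221 CPM, Abcf3 from 71.1 to 102 CPM and Abcb8, a mitochondrial half-transporter, from 75.5 to 115 CPM. The P-glycoprotein gene Abcb1b ranged from 24.8 to 39.6 CPM against at most 2.16 CPM for Abcb1a, and the cyclic nucleotide exporter Abcc5 from 17.1 to 33.9 CPM. The lower members varied more relative to their level. Abcc10 ranged from 1.3 to 9.51 CPM, the rodent gene Abcg3 from 0.759 to 7.46 CPM, the conjugate exporter Abcc3 from 0.795 to 6.11 CPM and Abcb4 from 1.78 to 5.74 CPM, while the lysosomal peptide transporter Abcb9 lay between 2.85 and 6.41 CPM.

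Marker lists differed between the populations too. Mast cell and basophil markers summed to 200 to 411 CPM in the MPP3 libraries and to 24.9 to 57.0 CPM in the MPP4 libraries. Megakaryocyte markers summed to 93.6 to 146 CPM and 13.4 to 28.0 CPM, and mature neutrophil markers to 9.24 to 75.1 CPM and 1.48 to 13.4 CPM. T and NK markers, nearly all of it Nkg7, summed to 422 to 641 CPM and 231 to 414 CPM. B cell sums (67.5 to 83.6 and 75.1 to 94.6 CPM), erythroid sums (41.4 to 91.5 and 20.2 to 89.1 CPM) and endothelial sums (168 to 217 and 165 to 214 CPM) overlapped. Nearly all of the B cell sums was Cd79b. Every marker of these lists had counts in at least 1 library, and the part of these cells in the member differences was not tested.

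The genes that work with these transporters were read from 11 lists, 131 genes tested in all. Between KO and WT, edgeR called 0 of 131 in MPP3 and 0 of 131 in MPP4, where it called 0.0676% and 0.0169% of all genes. An unadjusted p under 0.05 was had by 21 of the 131 in MPP3, beside 10.5% of all genes, and by 22 in MPP4, or 16.8%, beside 12.8%. DESeq2 called 5 in MPP3, or 3.82%, beside 1.82% of all genes, and 7 in MPP4, or 5.34%, beside 2.58%. Limma voom called 0 in MPP3, beside 0.0507%, and 2 in MPP4, or 1.53%, beside 0.287%. Of 22 genes of peroxisomal fatty acid oxidation, 7 had estimates above 0 in MPP3, with a median of -0.067. Of 15 genes of peroxisome biogenesis, 7 did, with a median of -0.029, and of 11 genes of very long chain fatty acid elongation, 9 did, with a median of 0.081.

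Among the other lists the MPP3 medians of KO against WT were -0.148 for 15 genes of sterol efflux and its LXR or SREBP control, 0.024 for 18 genes of mitochondrial iron-sulphur and haem synthesis, 0.154 for 10 genes of MHC class I peptide loading and -0.03 for 9 genes of ribosome recycling and eIF2. They were 0.191 for 12 genes of glutathione and leukotriene metabolism, -0.002 for 9 genes of cobalamin use and -0.061 for 8 xenobiotic and lipid sensors. Tap1 and Tap2, the peptide transporters that load MHC class I, had estimates of 0.15 ± 0.12 and -0.09 ± 0.10.

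Between MPP3 and MPP4, 24 of the 131 were called in WT, or 18.3%, beside 15.1% of all genes, 19 higher in MPP3 (6.8% of all genes) and 5 lower (8.33%). In KO 25 were called, or 19.1%, beside 17.9% of all genes, 19 higher (8.71%) and 6 lower (9.18%). The counts of single lists that follow stand beside these same shares. In peroxisomal oxidation, 2 were higher and 1 lower of 22 in WT, and 3 higher and 2 lower in KO. The acyl-CoA synthetase Acsl1 was higher in both (0.36 ± 0.105 and 0.42 ± 0.105), and the very long chain acyl-CoA synthetase Slc27a2 lower in both (-2.15 ± 0.37 and -3.08 ± 0.39). Slc27a2 passed the filter through its MPP4 groups alone, where it is high, so its values are a description. It averaged 2.61 and 1.16 CPM in MPP3 WT and KO and 11.5 and 9.9 CPM in MPP4. In elongation Elovl7 was higher in both genotypes (1.25 ± 0.25 and 1.34 ± 0.25), as was Elovl1 (0.36 ± 0.08 and 0.29 ± 0.08).

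On the sterol side, Apoe, the lipoprotein that takes up exported cholesterol, averaged 312 and 469 CPM in MPP3 WT and KO and 26.3 and 48.3 CPM in MPP4 (log2 fold changes 3.57 ± 0.21 and 3.28 ± 0.205). The esterifying enzyme Soat1 was higher in MPP3 in both genotypes as well (0.68 ± 0.21 and 0.64 ± 0.21). In the haem list 5 of 18 were called in WT, all higher in MPP3, where 6.8% of all genes were called in that direction, among them Alas1, the first enzyme of the pathway (0.88 ± 0.24, and 1.22 ± 0.24 in KO), and the last enzyme, Fech (0.345 ± 0.096, and 0.42 ± 0.096 in KO). In KO 3 were higher and 1 lower.

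Substrate genes of the conjugate exporters were among the called ones. Alox5, which starts leukotriene synthesis, averaged 6.05 and 10.8 CPM in MPP3 WT and KO and 0.2 and 0.596 CPM in MPP4 (4.85 ± 0.91 and 4.15 ± 0.85). It passed the filter through its MPP3 groups alone, so these values too are a description. Gclm, of glutathione synthesis, averaged 148 and 162 CPM in MPP3 and 75.2 and 73.0 CPM in MPP4 (0.98 ± 0.18 and 1.15 ± 0.18), and Gstm1 was higher in MPP3 in both genotypes (0.57 ± 0.11 and 0.95 ± 0.11). Mgst2 was lower in MPP3 in both (-1.23 ± 0.22 and -1.10 ± 0.21). In the peptide-loading list, 2 of 10 were higher in each genotype, the chaperones Calr and Pdia3, 2 were lower in WT and 1 in KO, and Tap1 and Tap2 were not called.

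Across the 16 libraries the members whose log2 CPM was most like that of Abcd2 were Abcb4 (Pearson r = 0.485, Spearman rho = 0.474), Abcf2 (r = 0.342, rho = 0.335) and Abcc3 (r = 0.254, rho = 0.382). These are descriptions over 16 libraries of 8 mice, which share mice, scaling and the 4 group means.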

How the data were processed

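The deposited files hold raw counts per gene, which the authors made by trimming paired-end reads, aligning them to mm10 with STAR 2.7.3a and counting with featureCounts 2.0.0 (annotation release and strand setting are not given in the sources used here). Identifiers were given symbols from GENCODE vM21 (GRCm38), which held 47310 of 47937. Members and lists were chosen with earlier results of these data known.

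The 11831 genes whose mean exceeded 100 counts in at least 1 group were fitted in edgeR 4.0.16 (TMM, quasi-likelihood F-test with legacy deviances) on all 16 libraries with 1 mean per group, and adjusted by Benjamini-Hochberg over all of them with a threshold of 0.1. SE is the absolute log2 fold change over the square root of F. Counts were scaled to CPM by TMM library sizes. Errors of single values are SDs over 4 libraries, and a count of 0 allows up to 3 counts, for counting error only. The edgeR step was also tested on simulated counts. DESeq2 1.42.0 and limma 3.58.1 gave alternatives under R 4.3.3.

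Deviations from the group means correlated between MPP3 and MPP4 libraries of the same number and genotype (r = 0.276 to 0.517), so these were treated as 1 mouse. Deviations did not correlate between WT and KO of the same number (r = -0.432 to 0.04).

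Named were the Abcd genes, members called between KO and WT or in the interaction, the 3 smallest p between KO and WT in each population, the 5 largest called changes in each direction between MPP3 and MPP4 in WT, the 3 highest levels, the 3 members under the filter with most counts, and the 3 most like Abcd2. Other members were named after their values were seen. Results for some genes are not reported here, although these count in the totals. A deposited table of normalised values was not used.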

Additional observations from a re-analysis of the deposited data

Results flagged for a closer look

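Abcd2 moved in opposite directions between the populations in the 2 genotypes, lower in MPP3 than in MPP4 in 4 of 4 WT mice and higher in 4 of 4 KO mice. The difference of the KO effects was 1.215 on the log2 scale (edgeR FDR = 0.665, limma voom FDR = 0.195, DESeq2 FDR = 0.0203). Nearly all of it is the MPP3 rise for which the gene was singled out.

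In 1 of 68 groups of 4 libraries examined (17 members in 4 groups) 1 library stood far from the other 3, where chance gives about 5% of groups. Abcf1 was at 235 CPM in MPP3 KO replicate 4, above 203 to 208 CPM in the others.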

How the results depend on the processing

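The number of members called between KO and WT in MPP3 fell from 1 to 0 with age as a term and with only the 8 MPP3 libraries, and was 0 to 1 with 1 library left out (0 without MPP3 WT replicate 2); the log2 fold change of Abcd2 was then 1.213 and 1.215, and 1.106 to 1.35 with 1 library left out. In MPP4 the members called stayed at 0, and the Abcd2 estimate, -0.003, turned sign to 0.008 with DESeq2 size factors, sex as a term and the DESeq2 Wald test, 0.006 with filterByExpr and 0.009 with the replicate number as a block, and ranged from -0.107 to 0.121 with 1 library left out, always far from the threshold. For Abca4 in MPP4, DESeq2 gave no adjusted p. The difference of the KO effects was called for 1 member, Abcd2, by the DESeq2 Wald test (1.211), and for 0 in the others. Between MPP3 and MPP4 in WT, 10 members were called with the mouse as a block in place of 6 and 4 to 6 with 1 library left out, and in KO 4 to 8 with 1 library left out in place of 7. Over all genes the DESeq2 Wald test called 215 between KO and WT in MPP3 and 305 in MPP4, where edgeR called 8 and 2, and the block by mouse raised the numbers between MPP3 and MPP4 from 1790 to 2930 in WT and from 2116 to 3346 in KO. In edgeR the block by mouse changed no member's call besides those given in the report. The WT and KO numbers paired no samples, and a block by number changed no member's call. The cause of these changes was not tested.

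Depth limits the low members. Abca4 had 2 to 132 counts per MPP4 library, and Abca8b at most 35 in any library. WT and KO differ in age, and age and genotype cannot be fully told apart with 4 mice each. Strand was not known for the counts.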
